A study of Homo sapiens with 6 samples.

Results

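The genes described here are 30 known transcriptional targets of p53, picked by symbol from the 59074 genes listed in the deposited expression table. All 30 symbols were found, and 28 of them reached a mean of at least 1 CPM (reads of a gene scaled to the depth of its library) over the libraries and were tested. TNFRSF10A and SPATA18 did not, as both stayed under 3 reads in all 6 libraries.

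RNA was sequenced from the established glioblastoma cell lines LN-229 (LNT229 in the sample titles), T98G and U251. Each line was transfected with siPOOLs, mixtures of many siRNAs against 1 transcript, and harvested after 72 h. The siHOTAIRM1 libraries received a pool against HOTAIRM1, a long non-coding RNA transcribed from the HOXA locus, and the siControl libraries a non-target pool. All 6 libraries therefore come from transfected cells, with 1 library per line and condition, and each line is a single cultured model that grew without a tumour's surroundings. The comparison asks what HOTAIRM1 knock-down does to the cells, and for these genes whether the p53 program moved with it and how its level differs between the lines.

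p53 is a transcription factor that is kept low by the ubiquitin ligase MDM2 and accumulates when DNA is damaged or cells are otherwise stressed. It then switches on genes that stop the cell cycle, above all CDKN1A (p21), genes that repair DNA or supply nucleotides, genes that push cells into apoptosis, and MDM2 itself, which closes a negative feedback loop. In glioblastoma the pathway is often disabled, among other ways by amplification of MDM2 or MDM4. LN-229 is usually described as retaining some p53 transcriptional function, whereas T98G and U251 are known as lines in which that function is impaired. The deposited table holds expression values alone, so the state of the p53 protein in these cultures was not examined.

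Sequences like the one p53 binds lie near the start of many of these genes. The p53 consensus consists of 2 copies of a 10-base repeat with a 4-base core, and it was searched on both strands within 2500 bases on either side of the start of each gene's MANE Select transcript (GENCODE 44, hg38), with no spacer between the copies, the first and last base of both cores (C and G) in place and at most 2 mismatches at the other positions, the middle of the cores included. Such a match was present in 15 of the 30 members (50%), in 7 of 24 further known targets (29.2%), in 0 of 24 regulators of p53 and in 726 of all 19061 genes with such a transcript (3.81%). A match is a description of the letters, and the absence of one says only that these letters are not in this window. Since several of these genes became known as targets through such sites, the share is not independent of how the names came to be listed. The matches of some members, chosen after their values were seen, are printed along the gene's strand, 5′ to 3′, with the 2 cores in capitals. The first 6 belong to genes that were higher in LN-229 than in both other lines, and the last 3 to PLK2, GDF15 and CCNG1, of which both LN-229 libraries lay below the other 4. BTG2 and TNFRSF10B were also higher in LN-229 than in both other lines, and their matches are not printed.
DDB2, chr11:47214969-47214988, plus strand, across the start of exon 1: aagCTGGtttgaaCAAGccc
MDM2, chr12:68808923-68808942, plus strand, intron 1: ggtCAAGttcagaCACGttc
CDKN1A, chr6:36676449-36676468, plus strand, 2265 bases upstream: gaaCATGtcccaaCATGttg
AEN, chr15:88621306-88621325, plus strand, 34 bases upstream: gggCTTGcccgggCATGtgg
FAS, chr10:88991309-88991328, plus strand, intron 1: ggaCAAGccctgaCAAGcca
ZMAT3, chr3:179070188-179070207, minus strand, intron 1: aaaCAAGtccagaCATGcct
PLK2, chr5:58462274-58462293, minus strand, 2207 bases upstream: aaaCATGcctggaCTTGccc
GDF15, chr19:18385308-18385327, plus strand, 850 bases upstream: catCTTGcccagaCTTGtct
CCNG1, chr5:163437926-163437945, plus strand, intron 1: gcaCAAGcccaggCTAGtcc

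The matches of ZMAT3 and PLK2 had 0 mismatches to the consensus, those of DDB2 and CCNG1 had 1, and those of MDM2, CDKN1A, AEN, FAS and GDF15 had 2. ZMAT3 and PLK2 lay on opposite sides of the line comparison, ZMAT3 being higher in LN-229 and PLK2 lower. In both comparisons the call of ZMAT3 was lost in some of the fits that left out 1 library. A relation between mismatches and direction was not tested. CCNG1 had a second match in intron 2, 2351 bases into the gene. The remaining members with a match were BAX, BTG2, GADD45A, RRM2B, SPATA18 and TNFRSF10B.

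**Figure D1:**
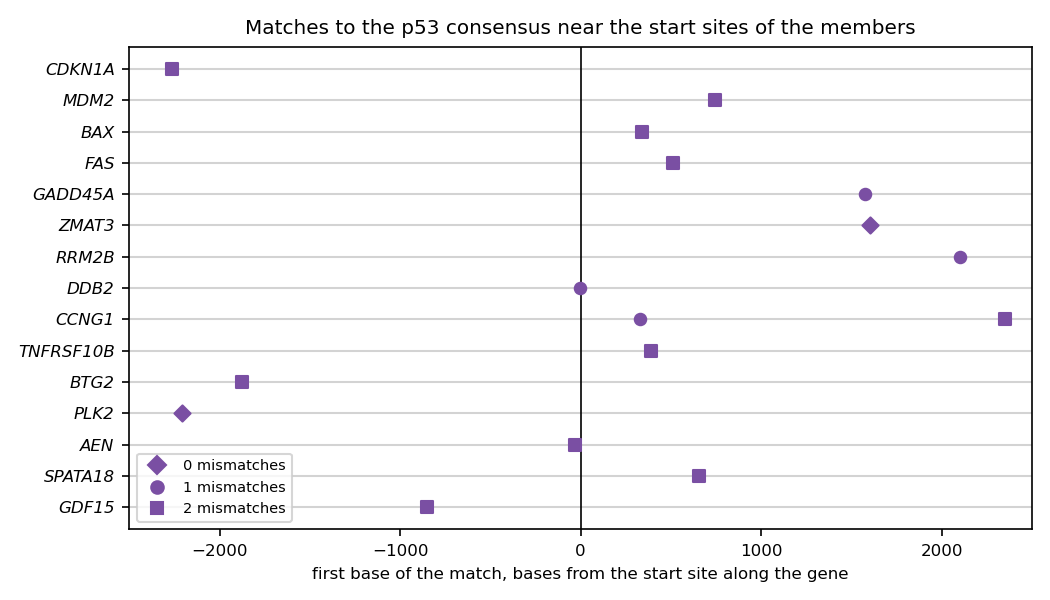
Position of each match to the p53 consensus within 2500 bases of the start site of the 15 members that have one. The x axis gives the first base of the match in bases from the start site along the gene, and the symbol gives the number of mismatches. Most matches lie within the gene, and those of CDKN1A, BTG2, PLK2, AEN and GDF15 lie upstream.

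The libraries held 52.3 to 104 M reads by the size of their smallest CPM step, of which 31.2 to 56.6 M reads fell on listed genes. A level of 3 reads corresponds to 0.0289 to 0.0574 CPM, and intervals built from reads cover counting error only. The values of the members summed over all 30 genes lay between 571.9 and 840.5 CPM per library. VIM and CD44 were high in all lines, but NES and SOX2 were under 1 CPM in T98G, and GFAP was above 1 CPM only in U251. Immune markers summed to at most 2.30 CPM, endothelial markers to at most 11.5 CPM, with KDR at 8.42 CPM in the U251 siControl library, and neuron markers to at most 26.7 CPM. Of the neuron markers RBFOX3 held at most 1 read, while SYT1 reached 20.9 CPM and was itself lower on knock-down (-0.83, limma adjusted p = 0.00138), and the part of such genes in the results was not tested. CPM here are shares of the reads of a whole culture, so fewer cells with a transcript and less of it per cell cannot be told apart. No line has a second library of either condition, and no source used here calls any of them independent experiments, so p-values measure the spread between these 6 samples, part of which may be technical. In limma that spread is not a gene's own alone, as it is drawn toward that of all genes at a similar level.

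HOTAIRM1 itself, on chromosome 7 from 27095647 to 27100265 (hg38), was lower in the siHOTAIRM1 library of every line. It stood at 1.99 CPM (176 reads) in the LN-229 siControl library and 0.952 (99 reads) in the siHOTAIRM1 library. In T98G it went from 3.49 (241 reads) to 2.15 (156 reads), and in U251 from 1.27 (67 reads) to 0.623 (63 reads from a deeper library). As a ratio of siHOTAIRM1 to siControl, LN-229 gave 0.478, T98G 0.615 and U251 0.489. All 3 counting intervals lay below 1, the highest upper bound being 0.752. On the log2(CPM + 1) scale, which understates changes of low genes, limma gave -0.54 ± 0.12 (SE, 3 lines), adjusted p = 0.0146. That call was lost without LN-229 (limma adjusted p = 0.0711) and without T98G (limma adjusted p = 0.435). Reads from genes that overlap HOTAIRM1 cannot be told apart on the opposite strand, because the library kit did not keep strand.

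None of the 28 tested members passed the threshold of an adjusted p of 0.05 on HOTAIRM1 knock-down, in either direction. Among all 14294 genes tested 59 were higher (0.413%) and 227 lower (1.59%) by the same limma test with cell line as a block. At an unadjusted p under 0.05, 5 members and 2622 of all genes passed. The median estimate of the members was -0.13, beside -0.07 over all genes, and 19 of 28 member estimates lay below 0, beside 9114 of 14294.

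CDKN1A and MDM2, the best known targets in arrest and in feedback, did not pass. CDKN1A, the cyclin-dependent kinase inhibitor p21, had 18.3, 11 and 6.51 CPM in the siControl libraries of LN-229, T98G and U251, and 15.2, 7.89 and 6.03 CPM in the siHOTAIRM1 libraries. It was lower in each pair, with a limma estimate of -0.26 (95% interval -0.55 to 0.03, adjusted p = 0.341). MDM2, in the same order of lines, had 190.0, 41.6 and 58.0 CPM with siControl and 222.9, 35.4 and 81.6 CPM with siHOTAIRM1. It was higher in LN-229 and U251 and lower in T98G, with a limma estimate of 0.16 (95% interval -0.15 to 0.48, adjusted p = 0.609). BAX, a pore-forming protein of the mitochondrial death pathway, gave 0.05 (95% interval -0.24 to 0.34). These intervals leave room for changes of the size given by their bounds, so equal levels were not shown.

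The members with the strongest estimates did not act in 1 process. RPS27L, a ribosomal protein paralog induced by p53, had 62.9, 22 and 64.8 CPM in the siControl libraries of LN-229, T98G and U251, and 47.5, 16 and 41.5 CPM in the siHOTAIRM1 libraries. It was lower in every pair, at a ratio of 0.755, 0.729 and 0.640, and limma gave -0.49 ± 0.14 (SE), adjusted p = 0.0609. With a pseudocount of 0.1 in place of 1 it was the only member called, at -0.50 (limma adjusted p = 0.0275). The limma adjusted p of RPS27L was 0.157 with the libraries centred on the median of all genes. Without LN-229, T98G or U251 it was 0.0961, 0.581 and 0.547. Across lines the RPS27L levels of the conditions overlapped, since the siHOTAIRM1 library of LN-229 lay above the siControl library of T98G. The fit compares the conditions within each line.

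TP53I3, which encodes an oxidoreductase linked to reactive oxygen species and apoptosis, had 5.05, 3.66 and 9.70 CPM with siControl and 4.43, 2.86 and 4.43 CPM with siHOTAIRM1. The lowest ratio was that of U251, 0.456 (counting interval 0.402 to 0.518), beside 0.876 in LN-229 and 0.781 in T98G. The limma estimate was -0.47 ± 0.15 (SE), adjusted p = 0.0905.

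TNFRSF10B, the death receptor DR5, had the highest estimate, with values from 106.0 to 126.8 CPM in LN-229, from 85.3 to 84.2 in T98G and from 41.8 to 72.0 in U251. The ratio was 1.72 in U251, 1.20 in LN-229 and 0.988 in T98G, where the counting interval (0.953 to 1.02) held 1. The limma estimate was 0.34 ± 0.16 (SE), adjusted p = 0.248. PLK3, a stress-responsive polo-like kinase, gave -0.35 (limma adjusted p = 0.147), and RRM2B, the p53-inducible small subunit of ribonucleotide reductase, -0.31 (limma adjusted p = 0.224). Both were lower in all 3 pairs without passing.

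Within a line there was 1 library per condition, so the following counts are descriptions with no test. Of 28 members, LN-229 had 14 that were lower with siHOTAIRM1, T98G had 26 and U251 had 20. The shares of all genes that were lower were 46.3%, 79.3% and 53.2%, so the count in T98G stood beside lower values of most genes in that line. The share of all reads that fell on listed genes went from 47.0% with siControl to 48.5% with siHOTAIRM1 in LN-229, from 50.2% to 42.9% in T98G and from 67.2% to 55.9% in U251, and its part in these counts was not tested. For LN-229, T98G and U251 the members had a median change of -0.01, -0.25 and -0.09, and all genes one of 0.01, -0.19 and -0.03. Relative to all genes of the same line the members' median was -0.02, -0.06 and -0.07. Changes of single members ran from -0.40 to 0.35 in LN-229, from -0.52 to 0.34 in T98G and from -0.98 to 0.77 in U251. No member reached a change of 1 on this scale in any line.

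The change was below 0 in all 3 lines for 13 of 28 members (46.4%), beside 28.1% of all genes, and above 0 in all 3 for 1 member (3.57%), beside 11.4%. When the median of all genes was first subtracted in each line, 9 members (32.1%) were lower in all 3 lines and 22.5% of all genes were, while 5 members (17.9%) and 23% of all genes were higher in all 3. The 9 were CDKN1A, ZMAT3, RRM2B, TP53I3, PPM1D, PLK3, AEN, TRIAP1 and RPS27L. TP53INP1, which promotes autophagy and apoptosis, was the only member that was higher in all 3 lines on both scales, with 3.81 and 4.39 CPM in LN-229, 6.43 and 8.37 in T98G and 8.11 and 10.6 in U251, siControl first. Its limma estimate was 0.28 (95% interval -0.01 to 0.57, adjusted p = 0.287).

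**Figure D2:**
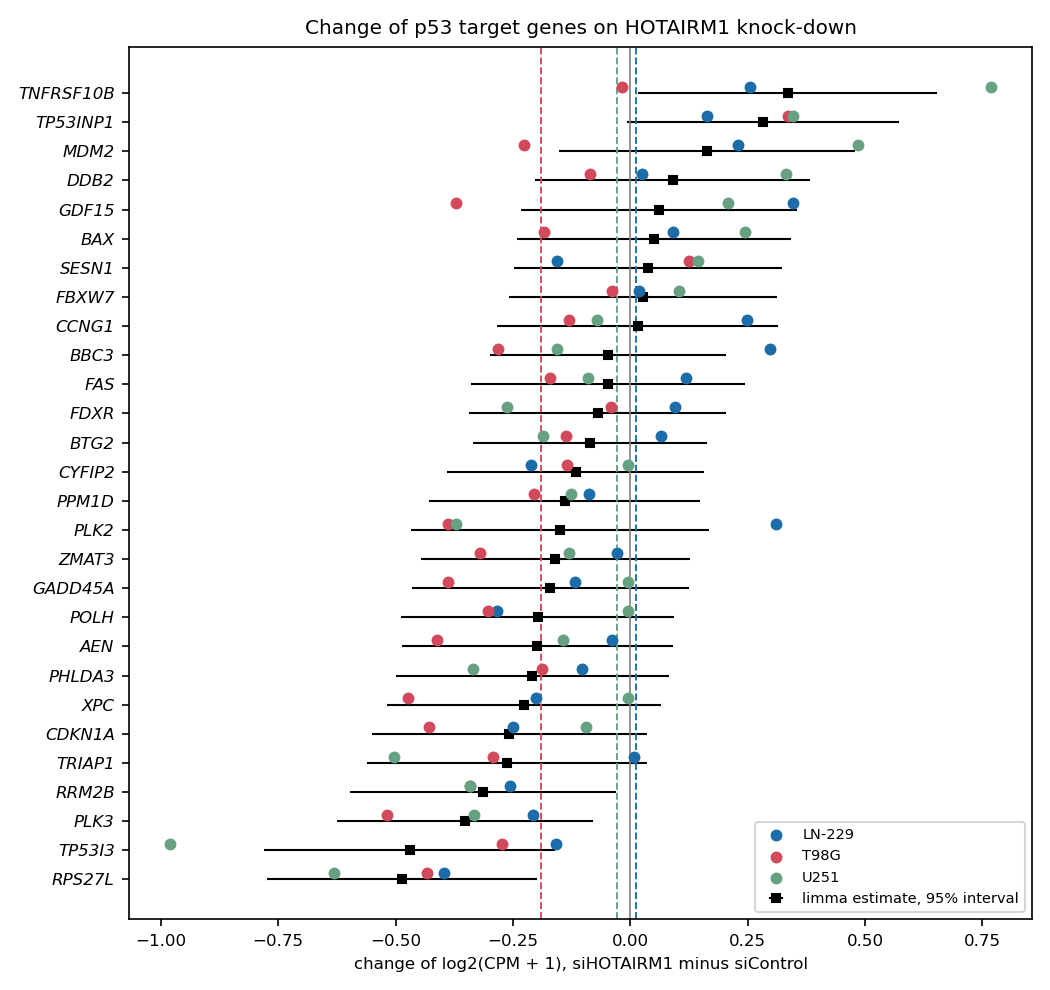
Change of the 28 tested p53 targets on HOTAIRM1 knock-down, as the difference of log2(CPM + 1), siHOTAIRM1 minus siControl. Coloured points give each cell line (1 library per condition), black squares the limma estimate with its 95% interval, and dashed lines the median of all 14294 genes in each line, which lies at -0.19 in T98G. RPS27L and TP53I3 stand lowest and TNFRSF10B highest, and no member passes the threshold of adjusted p.

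By role, the median limma estimate was 0.02 for the 3 feedback inhibitors, -0.16 for the 6 growth arrest genes, -0.12 for the 11 tested cell death genes, -0.21 for the 4 DNA repair and nucleotide genes and -0.02 for the 4 tested genes of metabolism and other functions. These roles were assigned after the values were seen.

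In the wider pathway a few genes did pass on knock-down, where 0.413% of all genes were higher and 1.59% lower. Of 22 tested regulators of p53, 1 was higher and 0 lower. This was HIPK2, a kinase that phosphorylates p53, which went from 78.9 to 169.7 CPM in LN-229, from 214.2 to 365.4 in T98G and from 61.0 to 147.6 in U251 (limma 1.04 ± 0.16, adjusted p = 0.00017). Of 18 tested further targets, 0 were higher and 2 lower. Among these was CD82, a membrane tetraspanin, which gave -0.56 ± 0.15 (limma adjusted p = 0.0461). Of 14 tested genes of the death machinery, 0 were higher and 2 lower. Without T98G neither HIPK2 (limma adjusted p = 0.181) nor CD82 (limma adjusted p = 0.590) passed, and no gene of any list did. CD82 also lost the call without U251 (limma adjusted p = 0.228) and with the libraries centred on the median of all genes (limma adjusted p = 0.192). None of 16 cell cycle genes known to be lowered through p21 and 11 tested paralogs or partners of the members passed. At an unadjusted limma p under 0.05 stood 2 and 1 of them, beside 2622 of all 14294 genes.

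More members passed between the cell lines than between the conditions. The lines were compared in the same limma fit, with condition as a term and 2 libraries per line. The spread is that between the siControl and siHOTAIRM1 library of a line after the mean effect of condition. It is drawn toward that of all genes at a similar level, so the small p-values rest in part on the spread of other genes. The comparisons of LN-229 with T98G and with U251 share the LN-229 libraries.

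Against T98G, 18 of 28 members were higher in LN-229 (64.3%) and 4 lower (14.3%), where 30.8% of all genes were higher and 24.1% lower. The members' median difference was 0.54 on the log2(CPM + 1) scale, beside 0.08 for all genes. The count of higher members fell to 9 without the siHOTAIRM1 library of LN-229 and to 9 without that of T98G, when 18.4% and 17.0% of all genes were higher. The count of lower members fell from 4 to 2 without the siHOTAIRM1 library of T98G. Of the 22 called members, BAX, FAS, PPM1D, RRM2B, SESN1, TNFRSF10B, TP53I3, TP53INP1 and ZMAT3 lost the call in both of these fits, TRIAP1 in the first and CDKN1A and PLK3 in the second. In every fit that left out 1 of the 4 libraries, 10 members stayed called, AEN, BTG2, CYFIP2, DDB2, MDM2, PHLDA3, RPS27L and XPC as higher and GDF15 and PLK2 as lower. With each library centred on the median of all genes, 15 members were higher and 6 lower, SESN1, TNFRSF10B and TP53I3 losing the call and CCNG1 and FBXW7 gaining it as lower.

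Against U251, 12 of 28 members were higher in LN-229 (42.9%) and 7 lower (25.0%), where 23.9% of all genes were higher and 36.7% lower. The median difference was 0.08 for the members and -0.15 for all genes. The counts were also 12 and 7 with the libraries centred, and leaving out any of the 4 libraries gave 11 higher and 6 to 8 lower. In all of those fits 16 of the 19 members stayed called, and PLK3, POLH and ZMAT3 did not.

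In the comparison of T98G with U251, members were more often lower in T98G. Of 28 members, 4 were higher in T98G (14.3%) and 13 lower (46.4%), beside 23.1% and 41% of all genes, and the medians were -0.30 for the members and -0.22 for all genes. The split depended on the scaling, as 36% of all calls were higher in T98G as deposited and 49.5% after centring, when 7 members were higher and 8 lower. The higher count fell to 2 without the siControl library of T98G or that of U251. The lower count fell to 5 without the siHOTAIRM1 library of T98G and to 8 without that of U251. Only CYFIP2, GADD45A, PLK2, RPS27L, SESN1 and TRIAP1 of the 17 called members stayed called whichever of the 4 libraries was left out. Centring added calls for DDB2, FAS and XPC, as higher in T98G.

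**Figure D3:**
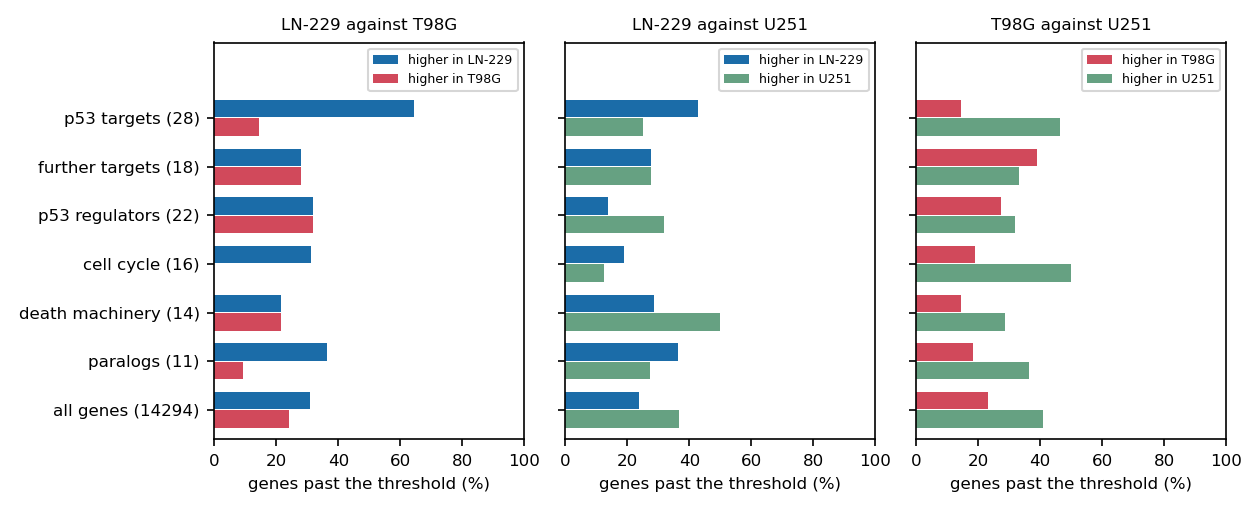
Share of genes past the threshold (adjusted p of 0.05, limma) in each pair of cell lines, in percent, for the p53 targets, the other lists of the pathway and all genes, with the number of genes tested in parentheses. In LN-229 against T98G the p53 targets reach 64.3% higher, beside 30.8% of all genes.

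A direct way to read the order of the lines is to ask where both libraries of 1 line lay above the other 4. This held in LN-229 for 11 of 28 members (39.3%), beside 20.6% of all genes. In T98G it held for 1 member (3.57%), PLK2, beside 17.2%. In U251 it held for 4 members (14.3%), SESN1, FDXR, CCNG1 and POLH, beside 32.7%. The 11 of LN-229 were MDM2 among the feedback inhibitors, CDKN1A and BTG2 among the arrest genes, FAS, TNFRSF10B, PHLDA3, AEN, CYFIP2 and ZMAT3 among the death genes, and DDB2 and XPC among the repair genes.

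**Figure D4:**
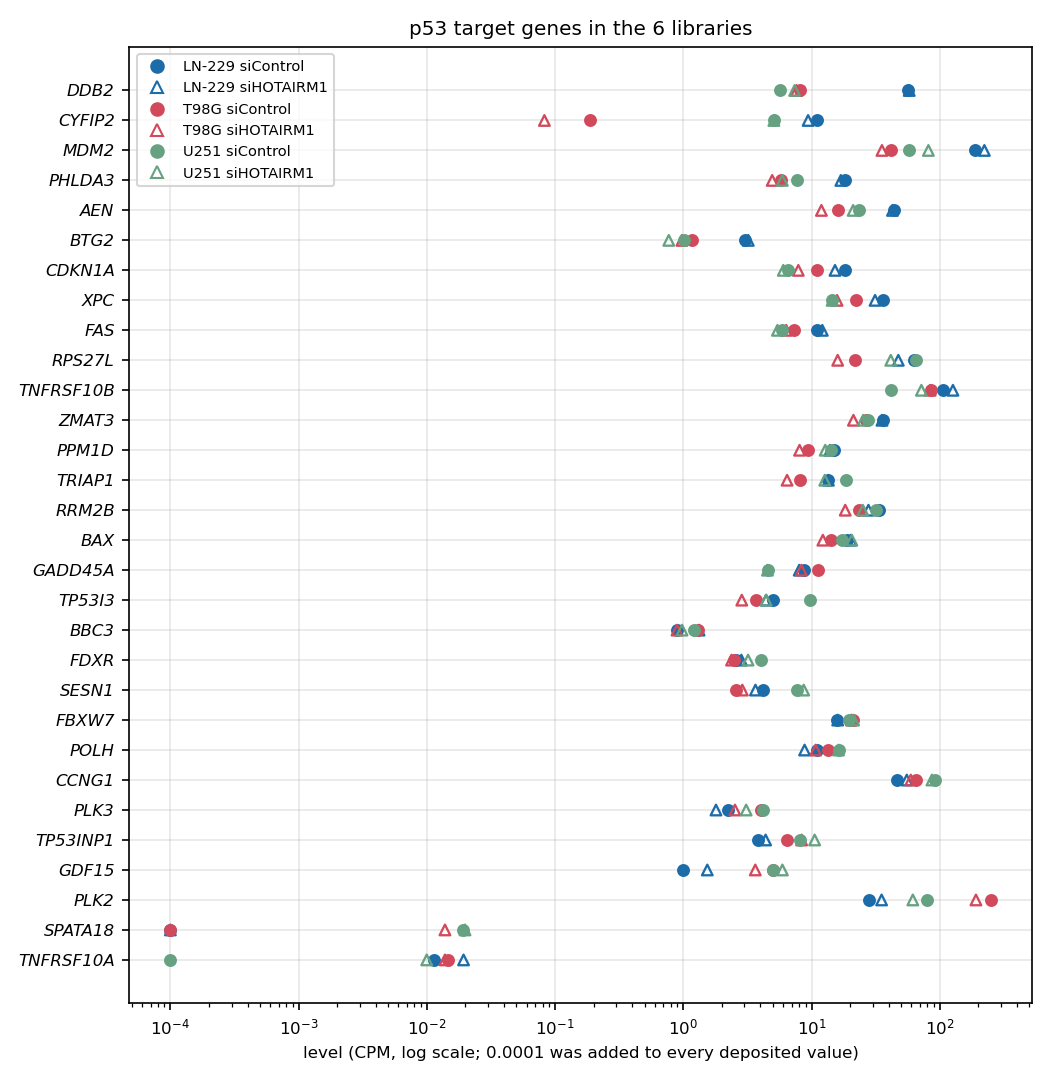
Level of each of the 30 p53 targets in the 6 libraries, in CPM on a log scale, with filled circles for siControl and triangles for siHOTAIRM1. DDB2, MDM2, PHLDA3, AEN and BTG2 stand apart in LN-229, PLK2 is highest in T98G, and TNFRSF10A and SPATA18 stay under 3 reads.

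Of the negative regulators, MDM2 showed the widest gap, with 190.0 and 222.9 CPM in LN-229, 41.6 and 35.4 in T98G and 58.0 and 81.6 in U251, siControl first. The lowest LN-229 library lay above the highest of the other lines, and the limma difference was 2.39 ± 0.19 (SE) against T98G and 1.57 ± 0.19 against U251, with adjusted p of 2.43e-13 and 8.35e-09. MDM2 shares exonic bases on the opposite strand with the carboxypeptidase M gene, and its level may include reads of that gene. PPM1D, the phosphatase WIP1 that switches the p53 response off again, was at 14.9 and 13.9 CPM in LN-229 and at 14.1 and 12.8 in U251, but at 9.45 and 8.07 in T98G. Its difference between LN-229 and T98G was 0.66 (limma adjusted p = 0.00165), a call lost without the siHOTAIRM1 library of LN-229 (limma adjusted p = 0.0552) or of T98G (limma adjusted p = 0.0611), while the difference between LN-229 and U251 was 0.09 (95% interval -0.26 to 0.45). CCNG1, cyclin G1, which recruits a phosphatase to MDM2, ran against this order, with 46.4 and 55.4 CPM in LN-229, 65.3 and 59.5 in T98G and 91.4 and 86.9 in U251.

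Among the arrest genes CDKN1A was highest in LN-229 (18.3 and 15.2 CPM), lower in T98G (11 and 7.89) and lowest in U251 (6.51 and 6.03), and no library of 1 line reached into the next. The limma difference was 0.78 ± 0.18 between LN-229 and T98G (adjusted p = 0.000325), 1.29 ± 0.18 between LN-229 and U251 (adjusted p = 1.08e-07) and 0.51 ± 0.18 between T98G and U251 (adjusted p = 0.0127). The difference from U251 stayed called whichever library was left out. That from T98G was not called without the siHOTAIRM1 library of T98G (limma adjusted p = 0.0582), and that between T98G and U251 was not called without the siControl library of T98G or U251 or the siHOTAIRM1 library of T98G (limma adjusted p = 0.0523 to 0.204). BTG2, an antiproliferative transcriptional cofactor, stood at 3.02 and 3.21 CPM in LN-229 and at 1.17 CPM or less in the other 4 libraries. Its difference was 0.99 against T98G and 1.12 against U251, and that between T98G and U251, 0.13, was not past the threshold (limma adjusted p = 0.449).

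Other arrest genes had other orders. PLK2, a polo-like kinase induced by p53, had 28.2 and 35.2 CPM in LN-229, 250.97 and 191.6 in T98G and 80.1 and 61.7 in U251. It was therefore lowest in LN-229, with differences of -2.76 ± 0.19 against T98G and -1.13 ± 0.19 against U251 (limma adjusted p = 5.91e-15 and 4.65e-06). PLK3 was lower in LN-229 too, at -0.49 and -0.61, but lost the call against T98G without either T98G library or the LN-229 siControl library, and against U251 without the latter. GADD45A, a stress sensor that binds cyclin-dependent kinase and repair proteins, was lowest in U251 (4.55 and 4.54 CPM), and LN-229 (8.79 and 8.02 CPM) and T98G (11.2 and 8.33 CPM) overlapped. FBXW7, which marks cyclin E and MYC for degradation, spanned only 15.8 to 21.3 CPM over the 6 libraries and passed in no pair of lines on the deposited scale, though with centring it was lower in LN-229 than in T98G (-0.45, limma adjusted p = 0.0110).

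Of the 11 tested death genes, 9 were higher and 1 lower in LN-229 than in T98G, and 6 were higher and 1 lower than in U251, beside 30.8% and 24.1%, and 23.9% and 36.7%, of all genes. The division by role was made after these values were seen, so the counts only describe that grouping. Centring the libraries on the median of all genes gave 7 higher than in T98G, and no filter gave 3, beside 28.3% and 4.05% of all genes. Against T98G the count of higher genes was 3 without the siHOTAIRM1 library of LN-229, 4 without that of T98G and 6 without the siControl library of LN-229. PHLDA3, an inhibitor of AKT signalling, had 18.3 and 16.9 CPM in LN-229, 5.76 and 4.94 in T98G and 7.73 and 5.92 in U251. AEN, an apoptosis-enhancing nuclease, had 44 and 42.8 CPM in LN-229, 16.2 and 11.9 in T98G and 23.4 and 21.1 in U251. In both genes every LN-229 library exceeded the other 4 by more than the 2 LN-229 libraries differed. The limma differences of PHLDA3 were 1.55 and 1.26, and those of AEN 1.57 and 0.93, against T98G and U251.

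CYFIP2, which binds the fragile X protein and takes part in actin regulation, split the lines most. It had 11 and 9.41 CPM in LN-229 and 5.11 and 5.09 in U251, but 0.188 (13 reads) and 0.0826 (6 reads) in T98G. The limma difference was 3.30 ± 0.17 between LN-229 and T98G, and 0.88 ± 0.17 between LN-229 and U251.

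The death receptor genes FAS and TNFRSF10B were both highest in LN-229. FAS had 11.1 and 12.1 CPM there, 7.28 and 6.35 in T98G and 5.84 and 5.42 in U251, and the difference between T98G and U251 passed only with centring (0.24, limma adjusted p = 0.245 as deposited and 0.0122 centred). TNFRSF10B had 106.0 and 126.8 CPM in LN-229, 85.3 and 84.2 in T98G and 41.8 and 72.0 in U251, so that the U251 libraries were further apart than those of LN-229. TNFRSF10A, the related receptor DR4, was at 0 to 2 reads in each library, and the highest 95% Wilson bound was 0.0820 CPM. The ligand gene of TNFRSF10A and TNFRSF10B, TNFSF10 (TRAIL), was at 0.0341 and 0.0578 CPM in LN-229, beside 12.8 to 21.7 CPM in the other lines. TNFSF10 was thus lowest in the line where TNFRSF10B was highest, and it was picked after its values were seen.

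BAX and BBC3 (PUMA), which act in cell death at the mitochondrion, followed LN-229 less. BAX was at 19 and 20.3 CPM in LN-229 and 17.3 and 20.6 in U251, and lower in T98G at 14.1 and 12.3. BBC3 was at 0.894 to 1.33 CPM in all libraries, with the lines fully overlapping. ZMAT3, an RNA-binding protein, was moderately higher in LN-229 (36.2 and 35.4 CPM) than in T98G (26.8 and 21.2) and U251 (27.8 and 25.3), and its call against U251 was lost without any 1 of the 4 libraries concerned. TRIAP1, an inhibitor of apoptosome formation, and TP53I3 were lowest in T98G, and TP53INP1 was lowest in LN-229 at -0.71 against T98G and -1.01 against U251.

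Both nucleotide excision repair genes were higher in LN-229. DDB2, which recognises ultraviolet damage, had 56.8 and 57.8 CPM in LN-229, 8.18 and 7.64 in T98G and 5.66 and 7.39 in U251. This was 2.71 ± 0.18 above T98G and 2.96 ± 0.18 above U251 (limma adjusted p = 9.45e-16 and 7.79e-17), the widest difference of any member against U251, and the difference between T98G and U251 passed only with centring (0.25, limma adjusted p = 0.213 as deposited and 0.0159 centred). DDB2 shares exonic bases with no other gene. XPC, the partner that binds the lesion next, had 36.1 and 31.3 CPM in LN-229, 22.4 and 15.8 in T98G and 14.5 and 14.5 in U251, with differences of 0.80 and 1.16. POLH, the translesion polymerase eta, was highest in U251 (16.3 and 16.2 CPM), and RRM2B was similar in LN-229 and U251 (difference 0.10, 95% interval -0.25 to 0.45) and lower in T98G.

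The remaining members did not follow the order of CDKN1A or MDM2. SESN1, a sestrin that restrains mTORC1, was at 7.77 and 8.70 CPM in U251, beside 4.19 and 3.66 in LN-229 and 2.56 and 2.89 in T98G. GDF15, a secreted stress cytokine, was lowest in LN-229, at 0.997 and 1.54 CPM, beside 5.01 and 3.64 in T98G and 5.00 and 5.93 in U251 (limma -1.23 and -1.52). RPS27L was at 62.9 and 47.5 CPM in LN-229 and 64.8 and 41.5 in U251, where the 2 lines overlapped, and at 22 and 16 in T98G. FDXR, ferredoxin reductase of the mitochondrion, spanned 2.38 to 4.04 CPM. SPATA18, which acts in mitochondrial quality control, held 0 to 2 reads in each library.

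**Figure D5:**
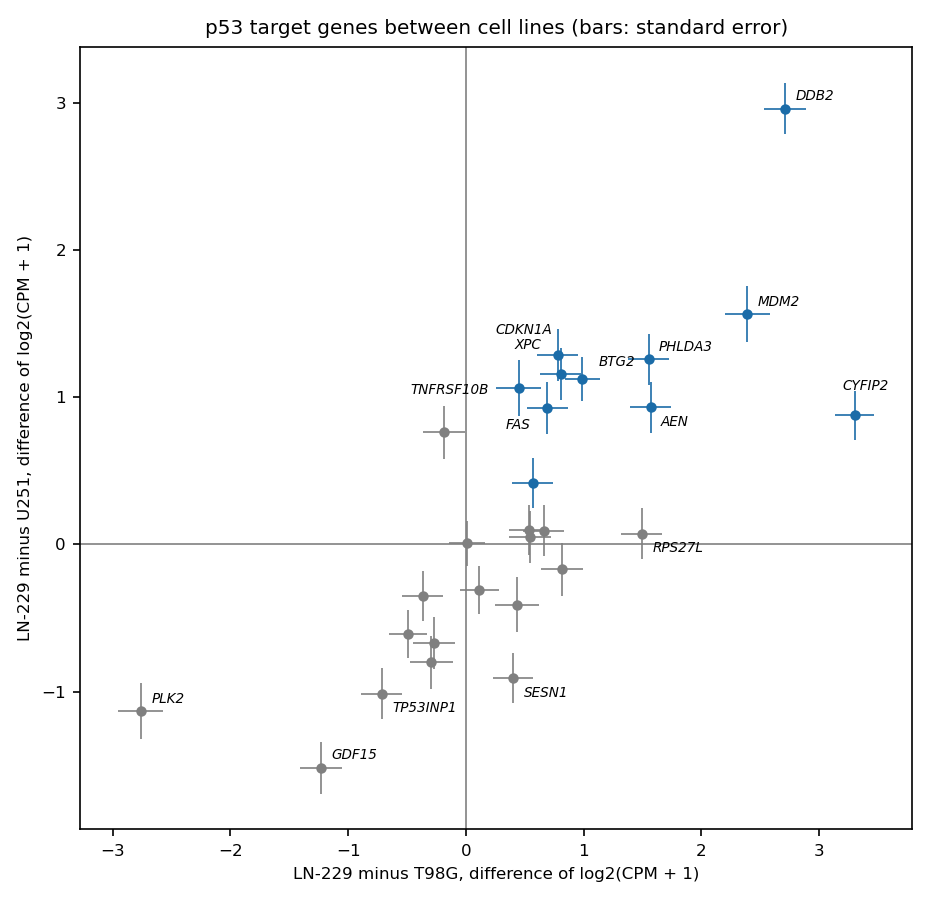
Difference of each of the 28 tested p53 targets between LN-229 and T98G (x axis) and between LN-229 and U251 (y axis), on the log2(CPM + 1) scale with standard errors. Blue marks genes past the threshold as higher in LN-229 in both comparisons, which are the same 11 whose LN-229 libraries both lay above the other 4. Since both axes use the same LN-229 libraries, the alignment of points is in part built in.

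For the other lists of the pathway, several counts stood near the shares of all genes. Against T98G, 7 of 22 regulators were higher in LN-229 and 7 lower (31.8% each). Of 18 further targets 5 were higher and 5 lower (27.8% each). Of all genes 30.8% were higher and 24.1% lower, and of the cell cycle genes below 31.2% were higher. Without the siHOTAIRM1 library of LN-229 or of T98G, 3 regulators and 3 further targets were higher. Against U251 the counts were 3 and 7 for the regulators (13.6% and 31.8%) and 5 and 5 for the further targets (27.8% each). Of all genes 23.9% were higher and 36.7% lower than in U251. The regulators' split against U251 turned to 7 higher and 5 lower with centring. The kinase gene ATM was lower in LN-229 in both comparisons (-1.72 and -1.50). The further targets included wide differences in both directions. LIF, a cytokine, had 517.7 and 446.1 CPM in LN-229 and at most 17.0 elsewhere, whereas CD82 was under 1 CPM in LN-229 and at 27.0 and 13.6 CPM in T98G. PERP, a membrane protein of desmosomes, was at or under 0.0384 CPM in U251 and at 42.1 to 114.5 CPM in the other lines. Of the 16 cell cycle genes, 5 were higher and 0 lower in LN-229 than in T98G, led by MYBL2 (1.66), a count that fell to 1 without the siHOTAIRM1 library of LN-229 and to 2 without that of T98G, and 3 were higher and 2 lower than in U251.

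Between T98G and U251, 23.1% of all genes were higher in T98G and 41% lower. Of 22 regulators 6 were higher and 7 lower in T98G, with HIPK2 at 1.55, and of 18 further targets 7 were higher and 6 lower. Of the cell cycle genes 3 were higher and 8 lower, with 6 and 6 after centring and 0 to 2 and 2 to 7 when 1 library was left out. The death machinery gave 3 higher and 3 lower of 14 between LN-229 and T98G, 4 and 7 between LN-229 and U251, the 7 becoming 3 without the siControl library of either line, and 2 and 4 between T98G and U251. BCL2, the antiapoptotic founder of its family, was higher in LN-229 in both comparisons (1.95 and 1.84). The 11 paralogs and partners gave 4 higher and 1 lower, 4 and 3, and 2 and 4 in the same order. For these lists too the shares of all genes are those given above for each pair. SESN3, a relative of SESN1, was also highest in U251, at 48.7 and 59.5 CPM beside at most 6.01 elsewhere.

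Members with a match to the p53 consensus, 14 of those tested, were set beside the 14 without. Members higher in LN-229 than in T98G numbered 10 and 8, and lower ones 2 and 2, beside 30.8% and 24.1% of all genes. The median differences were 0.56 and 0.42. Against U251, 9 and 3 were higher and 3 and 4 lower, beside 23.9% and 36.7% of all genes, with medians of 0.84 and -0.24. On knock-down the medians were -0.07 with and -0.17 without a match, and 0 of either were called. These are descriptions of 2 sets of genes, and no test was made between them. DDB2, MDM2 and CDKN1A, whose sequences are printed above, belong to the first set, as do PLK2 and GDF15, which were lower in LN-229, while PHLDA3, XPC and CYFIP2 belong to the second.

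Of the 30 members, 15 share exonic bases with another annotated gene, 14 of them on the opposite strand, among them CDKN1A, FAS, TNFRSF10B, TP53I3 and XPC. The share of such reads was not tested.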

How the data were processed

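RNA from 6 transfected glioblastoma cultures was sequenced by the authors on TruSeq v2 libraries (500 ng RNA, 101 cycles), a kit that does not mark strand. Per the study's methods, reads were trimmed by 13 bases at the 5′ and 1 base at the 3′ end, aligned to hg38 with STAR 2.4.1d and Bowtie 2 2.2.5, and quantified against Ensembl release 84 with the expectation-maximization step of Partek Flow, which splits shared reads between genes. The deposited values are CPM per gene, to which the authors added 0.0001, and they sum to 42.9 to 67.2% of the total a full CPM table would have. Of values under 100 reads 84.3 to 86.2% came out as whole reads (tolerance 0.05), so no count test was run. Read numbers and Wilson intervals (95%) were taken from the smallest CPM step.

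Genes whose mean reached 1 CPM (14294 of 59074) were fitted as log2(CPM + 1) with limma 3.58.1 in R 4.3.3 (lmFit, eBayes with trend), with condition and cell line as terms, and p-values were adjusted by Benjamini-Hochberg over all genes (threshold 0.05). Fold changes on this scale understate those of low genes. The pairing by cell line comes from the labels, and libraries of 1 line deviated together from the condition means (r = 0.948 to 0.967, 3 pairs). Those of different lines gave -0.505 to -0.467 (6 pairs), negative values that are largely built in by subtracting the mean of 3 lines. The fit was tested on simulated data. Matches to the p53 consensus were found with Python 3.11.15 in hg38 around GENCODE 44 start sites. COP1 and TIGAR were found under the older symbols RFWD2 and C12orf5.

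The members and lists were chosen with earlier results of these data known. All members and HOTAIRM1 were named, and from the lists some of the genes past the threshold on knock-down and some of the 3 with the largest line differences. TNFSF10 levels, the sequences shown and the division of the members by role were chosen after their values were seen. Some genes of the lists are not reported here by name. Alternatives were another pseudocount, no filter, median centring, the model without cell line or condition, the paired statistic of each gene alone, and leaving out each line or library.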

Additional observations from a re-analysis of the deposited data

How the results depend on the processing

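On knock-down the fit without the replicate block (cell line left out) called 0 genes higher and 0 lower, with 29 at an unadjusted p under 0.05, and HOTAIRM1, HIPK2 and CD82 each had an adjusted p of 1. The paired statistic of each gene alone called 0 and 0 (896 at an unadjusted p under 0.05), median centring 15 higher and 26 lower, a pseudocount of 0.1 149 and 534, and no filter 0 and 0. Leaving out each line gave 0 to 40 genes higher and 0 to 239 lower, both being 0 without T98G. Of the members, 1 was lower with a pseudocount of 0.1 (RPS27L) and 0 passed under every other alternative run. With centring HOTAIRM1 did not pass (-0.46, limma adjusted p = 0.170). The median change of the members in T98G was -0.0597 relative to all genes.

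Between LN-229 and T98G no filter gave 9 members higher and 2 lower, and leaving out each library 9 to 15 higher and 2 to 3 lower. Between LN-229 and U251 no filter gave 5 higher and 1 lower. Between T98G and U251 median centring gave 7 higher and 8 lower, no filter 0 and 5, the model without condition 2 higher, and leaving out each library 2 to 4 higher and 5 to 10 lower. The genes named as called on knock-down and the members called between lines kept their direction under the alternatives run gene by gene. With 1 library per line and condition, changes within a line had no test, and genes near 3 reads, such as TNFRSF10A and SPATA18, could not be compared at this depth.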
